A study of Caenorhabditis elegans with 5 samples.

Results

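The lipid-binding protein genes *lbp-1* to *lbp-9* of *Caenorhabditis elegans* were followed in animals given tamoxifen, a breast cancer drug that binds the estrogen receptor of mammals. The members were the rows of the deposited table whose gene identifiers carry these 9 symbols, and all 9 were found among 25393 listed genes. Wild-type N2 animals, labelled as L4 larvae, were grown from synchronized first-stage larvae on *E. coli* HT115, with 3 libraries from animals on 400 µM tamoxifen and 2 from animals on 400 µM citrate, the control. Both groups carry a label of 48 h. The study states that tamoxifen animals developed more slowly, without arrest, and were collected later than controls. The later collection was meant to keep differences in developmental rate out of the comparison. Drug and collection time cannot be told apart. RNA of whole animals was measured by Cel-seq2, a method that reads short tags from mRNA 3′ ends, in pools of staged animals. Values are CPM, the tags of a gene over all tags of the library, scaled to a sum of 1000000, and they involve no gene length because tags come from mRNA ends only.

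Lipid-binding proteins are small proteins that fold into a barrel and hold a fatty acid in its cavity, and they are related to the fatty acid-binding proteins of mammals. Inside cells they carry fatty acids, which dissolve poorly in water, between membranes, lipid droplets, mitochondria and the nucleus. In *C. elegans*, the products of *lbp-1*, *lbp-2* and *lbp-3* have a signal sequence and are predicted to leave the cell, whereas the products of *lbp-4*, *lbp-5*, *lbp-6*, *lbp-7* and *lbp-8* are of the intracellular kind. *lbp-5* is known for roles in fat storage and in the activity of the nuclear hormone receptor NHR-49, and the *lbp-8* product carries a lipid signal from the lysosome to the nucleus in the intestine.

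Of the 9 genes, 8 reached the level at which genes were tested, at least 5 CPM in at least 2 libraries, and *lbp-8* did not. *lbp-7* fell with tamoxifen and was the 1 member past the threshold, a limma adjusted p under 0.01 together with a change beyond 2-fold. *lbp-5* and *lbp-2* were also lower on average, without passing. The other 5 tested members, *lbp-1*, *lbp-3*, *lbp-4*, *lbp-6* and *lbp-9*, did not pass either. No tested member was called higher, by limma, edgeR or DESeq2, and 0 had an unadjusted p under 0.05 in that direction in any of the 3. Among all 8325 genes tested, 7.42% were called, 4.66% as higher and 2.76% as lower. The change of the median tested gene was 0.24 on the log2 scale, or 0.07 after median-of-ratios scaling, where 143 genes were higher and 270 lower, against 388 and 230 on the deposited scale. Changes of the members are given on the deposited scale and, where it matters, relative to that median.

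Library depth ran from 1782371 to 38276144 tags in tamoxifen and from 9277598 to 18882647 tags in citrate. A tested member rested on 71 tags at the least, for *lbp-3* in tamoxifen replicate 3, and on 17539 at the most, for *lbp-6* in tamoxifen replicate 2. Tamoxifen replicate 3 was the shallowest library and tamoxifen replicate 2 the deepest. Summed marker levels differed between the groups for some tissues, while those of hypodermis overlapped. The summed level of 8 genes of the oogenic germ line was 6078 to 6922 CPM in tamoxifen and 1257 and 2694 CPM in citrate, with all 8 called higher. Of the intestine markers, 5 of 6 were in the table, and their sum was 1000 to 1334 CPM in tamoxifen and 2371 and 3249 CPM in citrate. The intestinal actin gene *act-5*, the 1 of these called lower, made up 47.7% to 74.4% of that sum in tamoxifen and 74.4% and 80.9% in citrate. The other 4 were not called, with log2 fold changes from -0.54 for *ifb-2* to 0.68 for *ges-1*, and their sum overlapped between groups, at 505, 298 and 523 CPM in tamoxifen and 832 and 454 CPM in citrate. The sums for body wall muscle markers were 1845 to 2309 CPM in tamoxifen and 2991 and 3357 CPM in citrate, and those for sperm markers 154 to 288 CPM in tamoxifen and 383 and 520 CPM in citrate. Hypodermis markers summed to 90.3 to 118 CPM in tamoxifen and 94.5 and 98.2 CPM in citrate, and neuron markers to 366 to 420 CPM in tamoxifen and 327 and 347 CPM in citrate. No gene of these 4 lists was called by limma. No marker in the table was at 0 in all libraries. In RNA from whole animals, fewer cells of a type and less RNA per cell cannot be told apart, and the part of these shifts in the changes below was not tested.

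**Figure D1:**
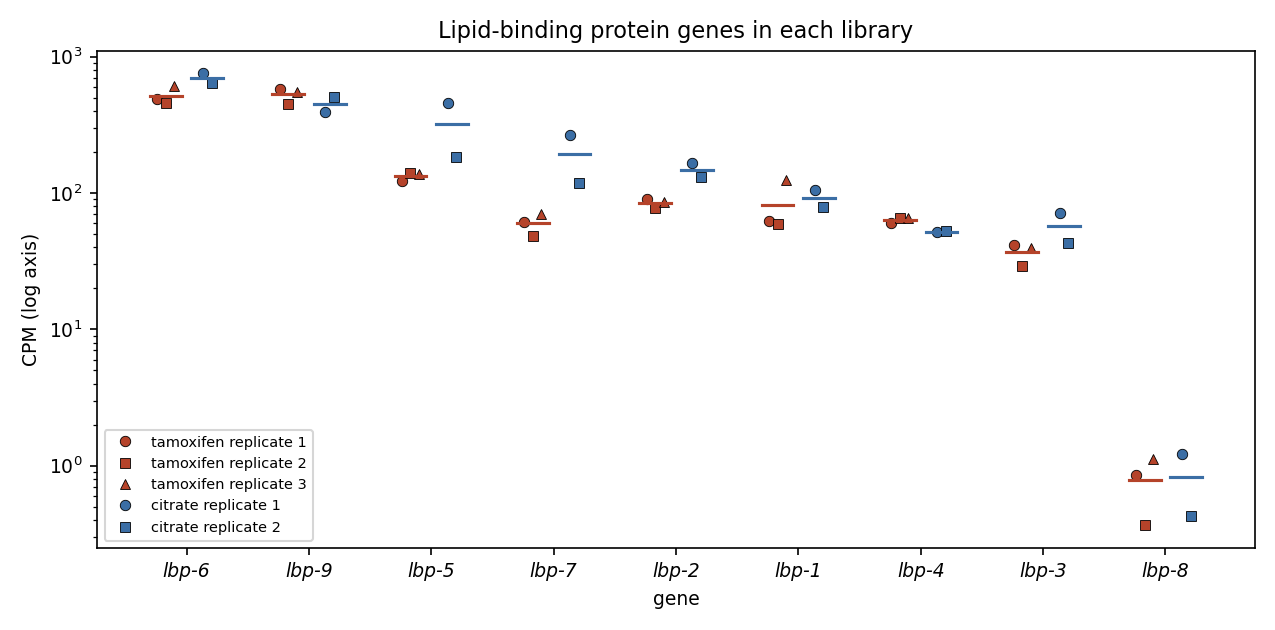
CPM on a log axis for each of the 9 genes, ordered by mean level, in the 3 tamoxifen libraries (red, left of each pair) and the 2 citrate libraries (blue, right), with symbols for replicates and lines for group means. *lbp-7* lay between 48.4 and 70.7 CPM in tamoxifen, below both citrate values of 265 and 119.4 CPM, and *lbp-8* lay between 0.366 and 1.22 CPM.

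By mean level, the family was led by a pair of genes. In tamoxifen, *lbp-9* averaged 528 ± 66.4 CPM and *lbp-6* 518 ± 79.5 CPM (SD, n = 3), a gap within the spread of either. *lbp-5* came next at 134 ± 10.05 CPM, apart from both. *lbp-2* at 84.4 ± 6.51, *lbp-1* at 82.3 ± 37.1, *lbp-4* at 63.7 ± 3.39 and *lbp-7* at 60.0 ± 11.2 CPM followed, with *lbp-1* overlapping its neighbours and *lbp-4* overlapping *lbp-7*. *lbp-3* was lower, at 36.8 ± 6.78 CPM. In citrate, *lbp-6* led at 697 ± 82.4 CPM (SD, n = 2) and *lbp-9* was second at 446 ± 78.8 CPM. There *lbp-5* at 321 ± 194 CPM and *lbp-7* at 192 ± 103 CPM came next, with spreads that overlapped each other. The spread of *lbp-5* also reached *lbp-9* and *lbp-2*, and that of *lbp-7* reached *lbp-2* and *lbp-1*. *lbp-2*, *lbp-1*, *lbp-3* and *lbp-4* followed at 149 ± 24.7, 92.6 ± 18.4, 57.0 ± 20.2 and 51.9 ± 0.491 CPM, where *lbp-3* overlapped both *lbp-1* and *lbp-4*. The 9 genes together made up 1502, 1332 and 1690 CPM in the tamoxifen libraries, against 2264 and 1750 CPM in the citrate libraries. All 3 tamoxifen sums lay below both citrate sums, and citrate replicate 2 was close to tamoxifen replicate 3.

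Among the intracellular carriers, *lbp-7* (V, 13879552 to 13880213, plus strand, in the Ensembl annotation of WBcel235) had the largest change of the 8 tested genes. It had 60.9, 48.4 and 70.7 CPM in tamoxifen replicates 1, 2 and 3, against 265 and 119.4 CPM in citrate replicates 1 and 2. Every tamoxifen value was below both citrate values, and the citrate values themselves differed by 2.21-fold, more than the 1.46-fold between the highest and lowest tamoxifen libraries. *lbp-7* fell by 1.57 on the log2 scale (log2 fold change -1.57, SE 0.34, adjusted p by limma 0.00793), or -1.81 relative to the median tested gene. Of all tested genes, 3.04% had a lower log2 fold change. The call was lost without any 1 library other than citrate replicate 2. The adjusted p of *lbp-7* from limma was 0.0287, 0.0145 and 0.0137 without tamoxifen replicates 1, 2 and 3, and 0.132 without citrate replicate 1, where the estimate was -0.997 (-2.14 without citrate replicate 2, limma adjusted p = 0.00218). Within a library, the level of *lbp-7* was 0.125, 0.106 and 0.116 times that of *lbp-6* in tamoxifen, against 0.350 and 0.187 times in citrate, a ratio on which the scaling of libraries has no bearing and in which the groups do not overlap either. Set against the summed intestine markers, *lbp-7* stood at 0.0457, 0.0417 and 0.0707 times that sum in tamoxifen and at 0.0814 and 0.0504 times in citrate, where the groups overlap. *act-5* was the largest part of that sum. Against *act-5* alone, *lbp-7* stood at 0.0735, 0.0561 and 0.148 times in tamoxifen and at 0.109 and 0.0623 times in citrate, where the groups overlap. A sum of the other 4 markers was taken after the values were seen. Against it, *lbp-7* stood at 0.121, 0.163 and 0.135 times in tamoxifen and at 0.318 and 0.263 times in citrate, where the groups do not overlap. Leaving out *act-5*, the marker called lower and a larger part of the citrate sums, by itself moves these ratios apart. No conclusion is drawn from that gap. That second sum was mostly *ifb-2*, at 389, 244 and 417 CPM in tamoxifen and 640 and 386 CPM in citrate.

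*lbp-5*, the fat-storage gene of the family, lies on chromosome I from 6731267 to 6732276 on the minus strand, 1890 bases from *lbp-6*, with *ant-1.2* between them. It had 122, 141 and 138 CPM in the tamoxifen libraries, against 459 and 184 CPM in citrate replicates 1 and 2. The tamoxifen libraries were within 1.15-fold of each other and below both citrate libraries, which differed by 2.49-fold. On the log2 scale *lbp-5* changed by -1.12 with a SE of 0.34, beyond 2-fold, but its limma adjusted p of 0.0256 missed the threshold. For *lbp-5*, the choice of citrate library decided the size. The estimate was -1.77 without citrate replicate 2 (limma adjusted p = 0.00248) and -0.46 without citrate replicate 1 (limma adjusted p = 0.361). On whole tags recovered from the deposited values, *lbp-5* passed with edgeR (-1.53, adjusted p = 0.00928) and with DESeq2 (-1.45, adjusted p = 0.00179).

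*lbp-5* and *lbp-7* were the 2 members that differed most between the control libraries. From citrate replicate 1 to citrate replicate 2, the log2(CPM + 1) level changed by -1.31 for *lbp-5* and -1.14 for *lbp-7*, against a median of 0.13 over all tested genes. The 8 oogenic markers differed between these same libraries by a median of 1.09, all 8 of them higher in citrate replicate 2. In both comparisons, tamoxifen against citrate and citrate replicate 2 against citrate replicate 1, these carriers were lower where the oogenic markers were higher. Both comparisons use citrate replicate 1, so they are not independent. That library had the highest levels of *lbp-5* and *lbp-7* and the lowest sum of oogenic markers. The part of oogenesis in the change was not tested. Profiles of *lbp-5* and *lbp-7* over the 5 libraries differed by 0.30 (root mean square difference of log2(CPM + 1) around each gene's mean). Of the other tested genes, the 3 most like *lbp-7* by that measure over 5 libraries were *ncx-2* at 0.10, *F45E1.1* at 0.16 and *nlp-43* at 0.16. *ncx-2* had 13.9, 12.0 and 18.5 CPM in tamoxifen, against 58.0 and 29.1 CPM in citrate.

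**Figure D2:**
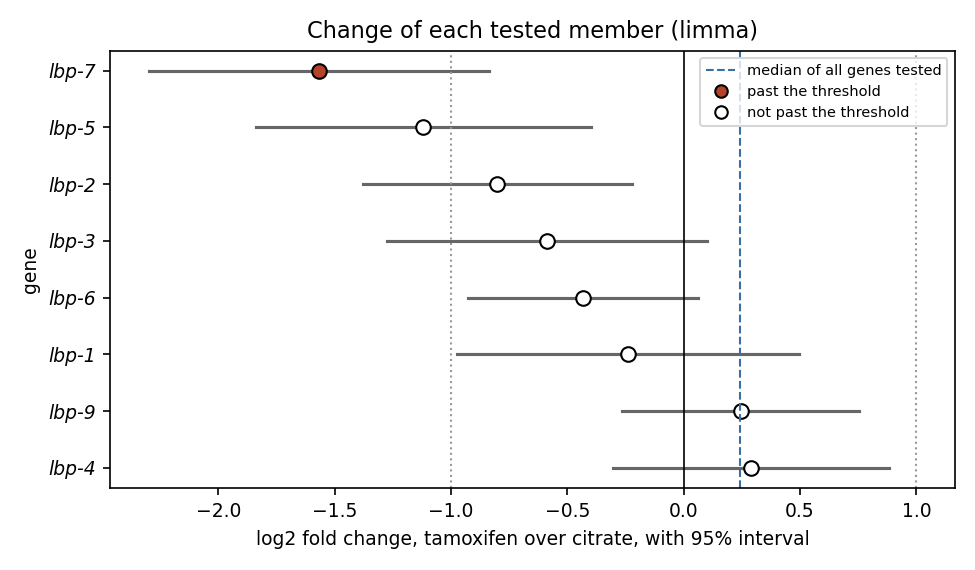
Log2 fold change of each of the 8 tested genes, tamoxifen over citrate, with the 95% interval from limma, the dotted lines at a 2-fold change and the dashed line at the median of all tested genes, 0.24. *lbp-7* at -1.57 was past the threshold, while the intervals of *lbp-3*, *lbp-6*, *lbp-1*, *lbp-9* and *lbp-4* held 0.

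*lbp-6* and *lbp-9* were the most abundant members and did not pass the test. *lbp-6* (I, 6728296 to 6729376, minus strand) had 488, 458 and 608 CPM in tamoxifen, against 755 and 638 CPM in citrate. All 3 tamoxifen values were below both citrate values, with tamoxifen replicate 3 close to citrate replicate 2. The estimate of -0.43 on the log2 scale (SE 0.23, limma adjusted p = 0.161) had a 95% interval from -0.93 to 0.06. *lbp-9* (V, 2068449 to 2069142, plus strand) had 577, 453 and 555 CPM in tamoxifen, against 391 and 502 CPM in citrate, and the groups overlapped. Its log2 fold change of 0.25 (SE 0.24, limma adjusted p = 0.439) was 0.005 from the median of all tested genes, and its 95% interval ran from -0.26 to 0.75. As a share of all family tags, *lbp-9* held 38.4%, 34.0% and 32.9% in tamoxifen, against 17.3% and 28.7% in citrate, while *lbp-6* held 32.5%, 34.4% and 36.0% in tamoxifen, against 33.3% and 36.5% in citrate. The share of *lbp-9* was higher in every tamoxifen library than in both citrate libraries, and the share of *lbp-6* overlapped between groups. A share is divided by the family sum, which was itself lower in all 3 tamoxifen libraries, while the CPM of *lbp-9* overlapped. Each of these abundant genes meets a coding gene of the opposite strand at its 3′ end, where tags are read. *lbp-6* overlaps *mec-6* by 35 bases and *lbp-9* overlaps *Y40B10A.9* by 5 bases, and whether strand was used in counting is not given in the sources used here.

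The predicted secreted carriers *lbp-3*, *lbp-1* and *lbp-2* stand in this order on the plus strand of chromosome X, with 986 and 797 bases between neighbours. They are paralogs, and whether tags were split among them in counting was not tested. *lbp-2* (3260610 to 3261470) had 89.7, 77.1 and 86.4 CPM in tamoxifen, against 166 and 131 CPM in citrate. The groups did not overlap, and the libraries within a group were close. *lbp-2* differed by -0.80 on the log2 scale (SE 0.27, limma adjusted p = 0.0393), under 2-fold on this scale, with a 95% interval from -1.38 to -0.22. With DESeq2 on recovered tags *lbp-2* passed narrowly, at -1.004 on the log2 scale (adjusted p = 0.0055).

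*lbp-3* (3257372 to 3258155), whose product is known as a signal carrier from intestine to neurons, had 41.6, 29.1 and 39.8 CPM in tamoxifen, against 71.2 and 42.7 CPM in citrate. The highest tamoxifen value lay just under the lower citrate value. Its estimate was -0.59 on the log2 scale (SE 0.32, limma adjusted p = 0.17), with -0.22 without citrate replicate 1 and -0.95 without citrate replicate 2 (limma adjusted p = 0.0732). *lbp-1* (3259142 to 3259812) had 62.3, 59.5 and 125 CPM in tamoxifen, against 106 and 79.5 CPM in citrate. Tamoxifen replicate 3, the shallowest library, was above both citrate libraries and the other 2 tamoxifen libraries were below them. For *lbp-1* the log2 fold change was -0.24 (SE 0.34, limma adjusted p = 0.608). With 1 library left out it ran from -0.58 without tamoxifen replicate 3 (limma adjusted p = 0.214) to -0.04 without citrate replicate 1, and was -0.09 and -0.05 without tamoxifen replicates 1 and 2 and -0.44 without citrate replicate 2. *lbp-2* and *lbp-3* had profiles that differed by 0.19 on the root mean square measure, against 0.39 between *lbp-1* and *lbp-3*. Together these 3 genes made up 194, 166 and 251 CPM in tamoxifen, against 343 and 253 CPM in citrate.

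*lbp-4* (V, 7820578 to 7821477, plus strand) was the most even member. It had 59.8, 65.7 and 65.6 CPM in tamoxifen, against 51.6 and 52.3 CPM in citrate. All tamoxifen values were above both citrate values, by little. The estimate was 0.29 on the log2 scale (SE 0.28, limma adjusted p = 0.435), or 0.05 relative to the median tested gene, and its profile differed from that of *lbp-9* by 0.19. *lbp-4* was the 1 tested member of 8 with all tamoxifen values above both citrate values, which 39.4% of all tested genes showed. In the other direction, 5 of 8 members (*lbp-2*, *lbp-3*, *lbp-5*, *lbp-6* and *lbp-7*) had all tamoxifen values below both citrate values, against 20.8% of all tested genes. An adjusted p under 0.05 with a lower level was reached by 3 of 8 (*lbp-2*, *lbp-5* and *lbp-7*), against 9.67% of all tested genes. The median log2 fold change over the 8 was -0.51, and the median over all tested genes 0.24. These shares rest on 8 genes, several of them neighbours on a chromosome.

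*lbp-8* (V, 13890773 to 13891364, plus strand), the lysosome-to-nucleus carrier, was listed at 0.854, 0.366 and 1.12 CPM in tamoxifen, against 1.22 and 0.431 CPM in citrate. These levels come from 3, 14 and 2 tags in tamoxifen and from 23 and 4 tags in citrate. The exact 95% Poisson intervals ran from 0.176 to 2.50, 0.2 to 0.614 and 0.136 to 4.05 CPM in tamoxifen replicates 1, 2 and 3, and from 0.772 to 1.83 and 0.117 to 1.10 CPM in citrate replicates 1 and 2, and cover counting error only. The groups overlapped. Citrate replicate 1 was the highest of all and tamoxifen replicate 2 the lowest, and within each group the intervals of the libraries overlapped. With no filter on low values, where 20671 genes were fitted, the log2 fold change of *lbp-8* was -0.02 (SE 0.31, limma adjusted p = 0.964). *lbp-8* lies 10559 bases from *lbp-7* on the same strand, and its level was far below that of *lbp-7* in all 5 libraries.

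**Figure D3:**
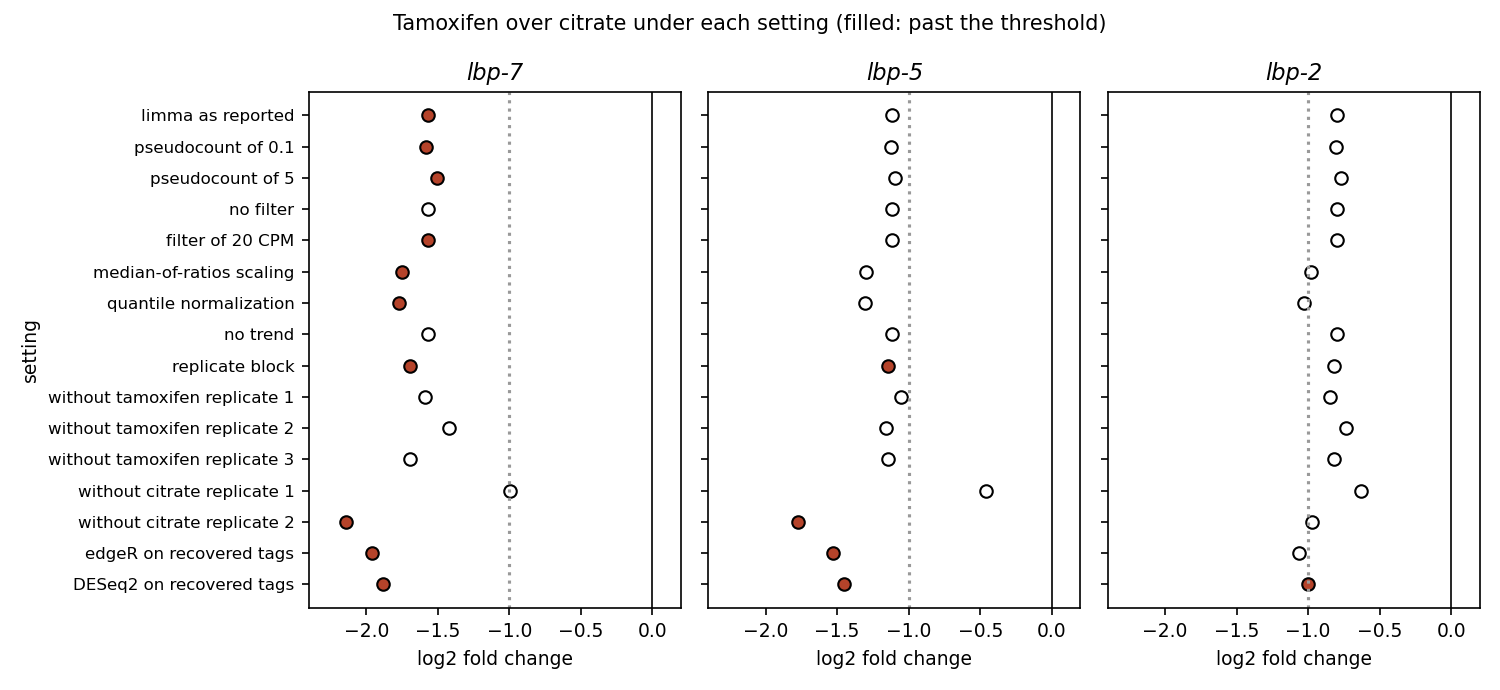
Log2 fold change, tamoxifen over citrate, of *lbp-7*, *lbp-5* and *lbp-2* under each alternative setting, with filled points past the threshold and the dotted line at a 2-fold decrease. *lbp-7* moved between -2.14 and -0.997 and *lbp-5* between -1.77 and -0.46, both ends set by the citrate library left out.

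Other lipid carriers and fat-handling genes were compared in the same fit, 28 tested of 45 named in 6 lists. Of the 28, 6 were called higher, 1 was called lower and 21 were not called. Over all 8325 tested genes, 4.66% were called higher and 2.76% lower, and 1 lower call of 28 is close to the latter share. The fatty acid and retinol binding proteins are a nematode family of small secreted carriers of another fold. Of its 8 genes 5 were tested, and *far-1* fell, with 391, 322 and 378 CPM in tamoxifen, against 1235 and 828 CPM in citrate (log2 fold change -1.48, SE 0.24, limma adjusted p = 0.00302). The tamoxifen values of *far-1* lay well below both citrate values, and the log2 fold change was -1.19 without citrate replicate 1 (limma adjusted p = 0.0491) and -1.53 without tamoxifen replicate 1 (limma adjusted p = 0.0129). The other 4 tested members did not pass. All 5 had log2 fold changes below 0, with a median of -0.91, against 3322 of all 8325 tested genes below 0. Acyl-CoA-binding proteins, which hold fatty acids once they are joined to coenzyme A, had 6 of 7 genes tested and 0 called by limma. Their median was -0.04, and the lowest adjusted p was that of *acbp-4*, at 17.9, 15.5 and 33.1 CPM in tamoxifen, against 10.2 and 10.5 CPM in citrate (log2 fold change 0.96, limma adjusted p = 0.057).

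Of the lipid droplet and lipolysis genes, 5 of 8 were tested, 2 rose and 3 were not called. The lipase gene *atgl-1*, which starts the breakdown of stored triglyceride, and the droplet coat gene *plin-1* rose, by log2 fold changes of 1.38 (SE 0.30, limma adjusted p = 0.0079) and 1.56 (SE 0.28, limma adjusted p = 0.00381). *plin-1* had 326, 329 and 306 CPM in tamoxifen, against 82.7 and 142 CPM in citrate, and *atgl-1* had 145, 191 and 155 CPM in tamoxifen, against 46.8 and 81.4 CPM in citrate. For both genes the citrate libraries were apart, with citrate replicate 2 nearer to tamoxifen. *atgl-1* did not pass without any 1 tamoxifen library or citrate replicate 1, where its limma adjusted p was 0.105, nor after median-of-ratios or quantile scaling, with edgeR, without a filter on low values or without a trend. *plin-1* did not pass without citrate replicate 1 (limma adjusted p = 0.0547) or tamoxifen replicate 1 or 3, nor without a filter or a trend.

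Of the yolk proteins, which carry lipid from the intestine to oocytes, all 6 were tested and 4 rose (*vit-1*, *vit-3*, *vit-4* and *vit-5*), with log2 fold changes from 1.34 to 2.04 and a list median of 1.39. Between the citrate libraries, replicate 2 had more yolk RNA than replicate 1, by a median of 0.88 on the log2 scale, while the fatty acid and retinol binding list differed by a median of -0.58. The oogenic markers, given above, were higher in the same libraries as the yolk genes, and their part in these changes was not tested. Without citrate replicate 1, 0 genes of the 6 lists were called in either direction by limma. After median-of-ratios scaling 2 of the lists' genes were called higher, *vit-4* and *plin-1*, and 1 lower. There *vit-1*, *vit-3* and *vit-5* had limma adjusted p of 0.0186, 0.0116 and 0.0104. *vit-1* also missed the threshold with edgeR (adjusted p = 0.0211) and, like *vit-3*, narrowly with quantile normalization in limma (adjusted p 0.0106 for *vit-1* and 0.0101 for *vit-3*).

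Of the genes that hand a lipid signal to the nucleus with *lbp-8* or *lbp-5*, those tested were not called. Others could not be tested. *nhr-80* stayed under the filter, at 2.85, 2.66 and 3.37 CPM in tamoxifen and 2.54 and 2.48 CPM in citrate, and *lipl-4* was not found by its symbol. The receptor gene *nhr-49* had 34.7, 59.1 and 53.9 CPM in tamoxifen, against 19.4 and 27.5 CPM in citrate, or 1.02 on the log2 scale (SE 0.33, limma adjusted p = 0.0323). Its tamoxifen values were all above its citrate values, and none of the 4 tested regulators of 8 was called. Of the lysosomal-type lipases 7 of 8 were in the table, 2 were tested and 0 were called by limma. The lowest adjusted p there was that of *lipl-5*, at 121, 117 and 143 CPM in tamoxifen, against 66.8 and 68.4 CPM in citrate (log2 fold change 0.89, limma adjusted p = 0.0256).

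**Figure D4:**
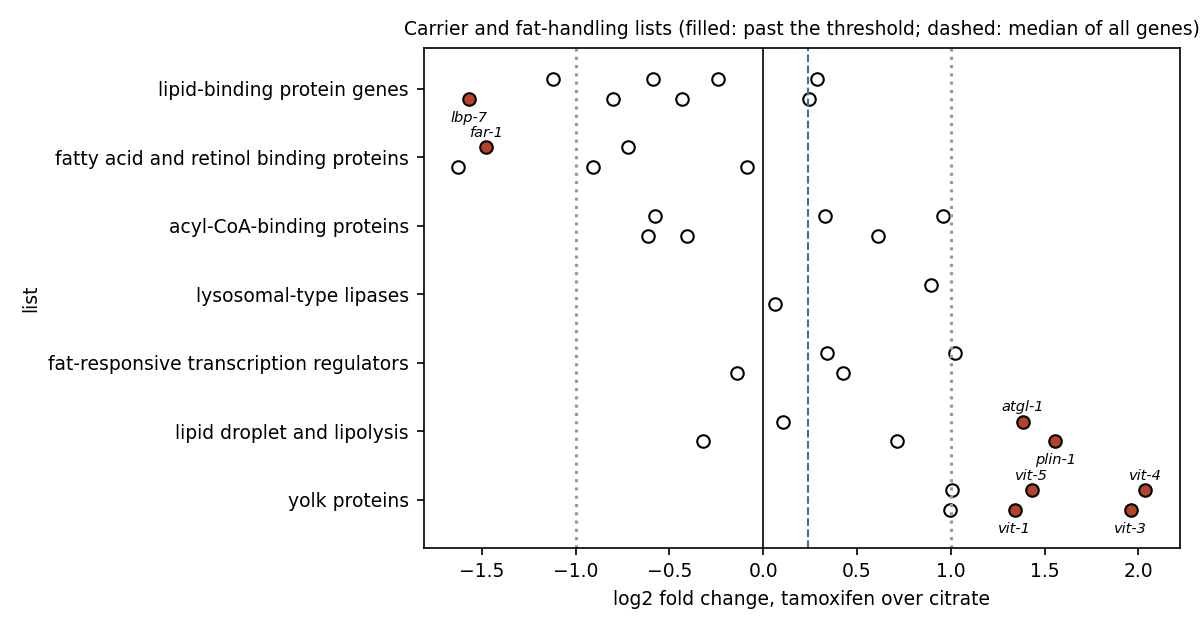
Log2 fold change, tamoxifen over citrate, of the tested genes of the lipid-binding protein family and of 6 lists of other lipid carriers and fat-handling genes, with filled and named points past the threshold and the dashed line at the median of all tested genes. *lbp-7* and *far-1* lie at -1.57 and -1.48, and *atgl-1*, *plin-1* and 4 yolk genes lie between 1.34 and 2.04.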

How the data were processed

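RNA was measured in 5 Cel-seq2 libraries, described by the study as biological replicates and grouped from the sample labels. The authors deposited 1 table of values named TPM, which sum to 1000000 per library without gene length and were therefore treated as CPM. All values (100%, within 0.01 tags) were whole multiples of the smallest value of their library, which gave whole tags. The submitters' processing notes name Trimmomatic 0.32 and STAR, and the paper a DolphinNext pipeline. Genome build, strand setting and collapsing of molecular identifiers are not given in the sources used here. Positions are those of the Ensembl annotation of WBcel235.

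Groups were compared with limma 3.58.1 under R 4.3.3 (empirical Bayes with trend) on log2(CPM + 1), over the 8325 genes that reached 5 CPM in 2 or more libraries, with no covariates and Benjamini-Hochberg adjustment. A call needed an adjusted p under 0.01 together with a change beyond 2-fold. Fold changes on this scale understate changes of low genes. For single genes, exact permutation of 3 and 2 libraries has 0.1 as its smallest p. edgeR 4.0.16 (148 genes higher and 426 lower) and DESeq2 1.42.0 were run on whole tags. edgeR used the same 8325 genes and DESeq2 all 20671 genes with a tag. Each applies its own scaling of libraries, which the limma fit on CPM does not. The median log2 fold change over all genes was 0.03 with edgeR and 0.04 with DESeq2, against 0.24 with limma. The edgeR counts thus differ in tool and scaling, and the DESeq2 counts in tool, scaling and filter. Scripts were tested on simulated data. Members and lists were chosen with earlier results of these data known. All 9 members are named, and from each list the genes past the threshold or, failing these, the gene with the lowest adjusted p. *lipl-4* and the intestine marker *opt-2* were not analysed here, nor were sequences.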

Additional observations from a re-analysis of the deposited data

How the results depend on the processing

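Over 15 alternative fits, each of the 8 tested members had a log2 fold change of 1 sign throughout, though as low as 0.007 for *lbp-9* and 0.015 for *lbp-4*. Of 120 values, 109 kept their side of the threshold. These were 9 of 15 for *lbp-7*, 11 for *lbp-5*, 14 for *lbp-2* and all 15 for each other tested member, none of them called at first. The cause of the changes below was not tested. Members called lower numbered 1, and 0 without a filter on low values or without a trend, 2 with edgeR or at an adjusted p of 0.05, 3 with DESeq2, and 0 to 2 with 1 library left out. *lbp-7* was at -1.57 without a filter (limma adjusted p = 0.0964) and without a trend (0.0188), and at -2.14 to -0.997 with 1 library left out, losing the call except without citrate replicate 2. *lbp-5* gained it with edgeR (-1.53), DESeq2 (-1.45) and without citrate replicate 2 (range -1.77 to -0.46), and *lbp-2* with DESeq2 (-1.004). Where 1 citrate library remained, it was assumed to vary like the tamoxifen libraries.

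List genes called higher numbered 6, and 0 without a filter or a trend, 2 after median-of-ratios scaling, and 0 to 8 with 1 library left out. List genes called lower numbered 1, and 0 without a filter or a trend, 2 with edgeR, DESeq2 or an adjusted p of 0.05, and 0 to 1 with 1 library left out. Over all genes, against 388 higher and 230 lower, there were 0 and 0 without a filter (limma, 4742 genes at an unadjusted p under 0.05), 143 and 270 after median-of-ratios scaling, 221 and 367 with quantile normalization, 31 and 46 without a trend, 148 and 426 with edgeR, 542 and 665 with DESeq2 over 20671 genes, and 4 to 541 and 1 to 157 with 1 library left out, lowest without citrate replicate 1.

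With the replicate number as a block, 2 members (*lbp-7* and *lbp-5*, at -1.14) and 2 list genes were called lower, and 1044 and 599 of all genes were called higher and lower. The libraries share only a number. Deviations from group means correlated at 0.12 for replicate 1 and 0.32 for replicate 2 over 8325 genes, and the block leaves 1 residual degree of freedom.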
